A study of Ovis aries with 40 samples.

Results

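EEF1A2 is the elongation factor 1 alpha of differentiated skeletal muscle, and it was followed with 2 probes, A_70_P046666 and A_70_P010381, of 15008 on an Agilent sheep array. The probes were selected on the difference between 2 sheep breeds, in which the study listed A_70_P046666 for fetuses of 70 and 85 d and A_70_P010381 for those of 85 d, so the breed values of these stages are given below as a description only. Both are named in the array files only by expressed sequence tags, and the gene name rests on the study's alignment of these tags with human genes. The array also carries 5 probes of the sister gene, 3 of them named EEF1A1 and 2 of the locus LOC100125610, which the array design describes as elongation factor-1 alpha.

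Longissimus dorsi muscle, the long muscle of the back, was measured on 40 arrays, 1 array per animal, in 13 groups. Texel, a heavily muscled breed, contributed 16 fetuses, and Ujumqin, a Chinese indigenous breed, contributed 15, both over 5 stages of gestation, which were 70, 85, 100, 120 and finally 135 d. A further 9 Ujumqin animals were taken at birth, 1 month and 2 months, and no Texel animal was measured after birth. Every group held 3 animals except Texel at 100 d, which held 4, and both sexes were used. As 3 ewes of each breed were used at a stage according to the methods, the 4 Texel fetuses of 100 d may include littermates, and the labels do not name the dams. Troponin C2 and the fast regulatory myosin light chain, both defining proteins of skeletal muscle, were near the top of the intensity scale in every group, with group means of 18.6 to 19.0 for TNNC2 and 18.4 to 18.8 for MYLPF on the log2 scale.

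Elongation factor 1 alpha binds GTP and carries each aminoacyl-tRNA to the ribosome, where it is released once codon and anticodon have paired. Its guanine nucleotide is exchanged by the EEF1B complex, which includes EEF1D. Mammals have a nearly ubiquitous form, EEF1A1, and a closely related form, EEF1A2, that is largely restricted to skeletal muscle, heart and neurons. In rodent muscle the first gives way to the second as the tissue matures after birth.

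The probe sequences are shown because the proteins are so alike that the identity of a signal rests on where each 60-base probe lies. Capitals mark runs of at least 14 bases that are shared with another of the 7 probes.
A_70_P010381 (EEF1A2): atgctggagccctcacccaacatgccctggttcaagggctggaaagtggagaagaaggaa
A_70_P024176 (EEF1A1): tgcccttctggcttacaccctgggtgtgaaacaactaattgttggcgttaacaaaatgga
A_70_P012926 (EEF1A1): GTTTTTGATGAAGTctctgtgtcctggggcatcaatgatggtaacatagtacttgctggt
A_70_P012927 (EEF1A1): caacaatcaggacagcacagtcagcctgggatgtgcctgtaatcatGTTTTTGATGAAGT
A_70_P024461 (LOC100125610): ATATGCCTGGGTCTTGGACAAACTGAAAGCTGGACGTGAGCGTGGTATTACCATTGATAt
Neither EEF1A2 probe nor A_70_P024176 shared a run of 14 bases with any other probe of the array on either strand. The LOC100125610 probes overlapped each other by 59 bases, so they are close to 1 measurement. A_70_P012926 and A_70_P012927 come from 1 expressed sequence tag and shared 14 bases. Read in 3-base codons, A_70_P010381, A_70_P024176 and the LOC100125610 probes spell stretches of elongation factor 1 alpha on the strand printed here, whereas A_70_P012926 and A_70_P012927 do so on its reverse complement. The latter pair therefore lies on the strand opposite to the other 3 probes, and its values are given apart from theirs. Whether this pair detects the RNA of EEF1A1 on this array was not tested. Both EEF1A2 probes had 55% G and C bases against 45% in A_70_P024176. Cross-hybridization between the 2 forms was not tested.

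EEF1A2 rose from a middling signal to one of the brightest on the array. Levels are log2 values of the background-subtracted signal after the 40 arrays had been normalized together, so a difference of 1 is a doubling. In Ujumqin fetuses, the 70 d arrays of A_70_P046666 read 11.38, 10.96 and 11.57, and those of 85 d read 11.48, 11.32 and 11.08. The arrays of 100 d then read 15.00, 16.001 and 15.24, and 17.63, 17.87 and 17.84 were reached by 120 d. All 3 arrays of 100 d thus lay above all 6 earlier arrays, and all 3 of 120 d above those of 100 d. At 135 d the values were 18.14, 18.21 and 18.12. After birth they were 18.55, 18.91 and 18.44 in newborn lambs, 18.52, 18.35 and 18.17 at 1 month and 18.52, 18.53 and 18.50 at 2 months. From 135 d onwards the probe stayed within a narrow band at the top of the scale. At 70 d in Ujumqin 27.6% of the 14480 tested probes were brighter, and at birth 0.0276% were.

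Texel fetuses began higher. A_70_P046666 read 14.56, 14.75 and 13.98 on the 70 d arrays, 14.86, 15.58 and 15.38 on those of 85 d, and 15.14, 16.70, 16.37 and 16.78 on those of 100 d. The 120 d arrays read 17.87, 17.67 and 16.71, and the 135 d arrays read 17.95, 18.23 and 18.21. Neighbouring stages from 85 to 120 d overlapped in Texel, since the lowest array of 100 d lay below 2 arrays of 85 d and the lowest of 120 d below 1 of 100 d. The group means of both breeds together spanned 7.34 on the log2 scale, which is 162-fold. The spread between animals ranged from an SD of 0.015 at 2 months to 0.76 in Texel at 100 d.

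**Figure D1:**
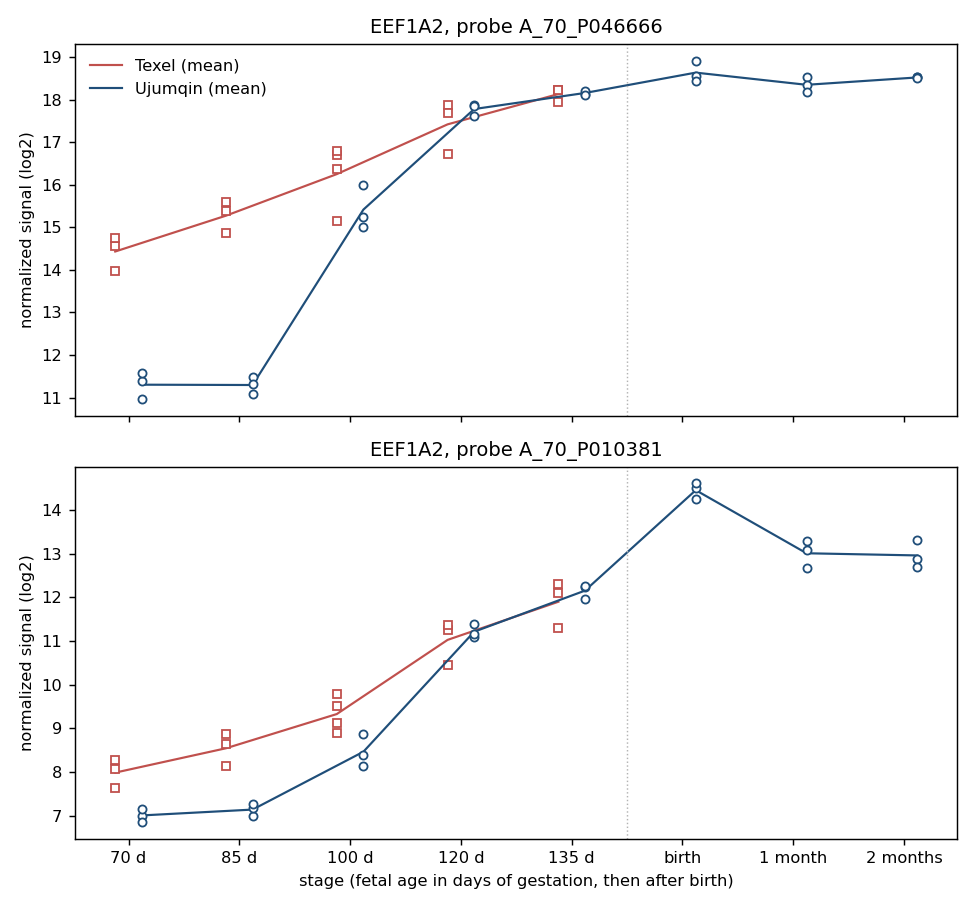
Normalized signal of the 2 EEF1A2 probes (log2, vertical axis) by stage (horizontal axis, evenly spaced categories), with 1 symbol per animal, squares for Texel and circles for Ujumqin, and lines through the group means. The Ujumqin arrays of 70 and 85 d lie lowest in both panels, the breeds meet by 120 d, and A_70_P010381 peaks at birth with a mean of 14.45.

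A_70_P010381 read lower throughout, which cannot be taken as a lower abundance because probes differ in their response, but it also rose through gestation. In Ujumqin the 70 d arrays read 7.003, 6.86 and 7.15, those of 85 d read 6.99, 7.17 and 7.26, and those of 100 d read 8.14, 8.87 and 8.38. Values of 11.09, 11.15 and 11.39 followed by 120 d, and of 11.96, 12.24 and 12.26 by 135 d. No array of 100, 120 or 135 d fell below one of an earlier stage. In newborn lambs it read 14.51, 14.61 and 14.24, above every other array, and it was lower again at 1 month, with 13.29, 13.07 and 12.66, and at 2 months, with 12.87, 12.70 and 13.31. Texel arrays of 70 d gave 8.27, 8.06 and 7.63, those of 85 d gave 8.13, 8.86 and 8.64, and those of 100 d gave 8.90, 9.78, 9.11 and 9.52. By 120 d the Texel values were 11.25, 11.37 and 10.45, and by 135 d they were 12.31, 12.10 and 11.29. Its group means spanned 7.45 on the log2 scale, or 174-fold, close to the span of the other probe. Over the 40 arrays the probes correlated with r = 0.91, and with r = 0.67 after the group means had been removed, over arrays that share their RNA and normalization.

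Ordered by mean level, the 13 groups largely followed stage. For A_70_P046666 the order from the lowest was Ujumqin at 85 and 70 d, Texel at 70 and 85 d, Ujumqin and Texel at 100 d, Texel and Ujumqin at 120 d, Texel and Ujumqin at 135 d, and Ujumqin at 1 month, 2 months and birth. Of the 12 pairs of neighbours in that order, 3 did not overlap between arrays. These gaps lay between Ujumqin at 70 d and Texel at 70 d, with 3.13 between the means, between Texel at 70 and 85 d, with 0.84, and between Ujumqin at 120 d and Texel at 135 d, with 0.35. All other neighbours overlapped, including the 5 groups from 135 d onwards. For A_70_P010381, 5 of the 12 neighbouring pairs did not overlap, and newborn lambs stood 1.44 above the next group.

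Each step between successive stages was tested with limma in 1 fit over the 13 groups, and a probe was called at a Benjamini-Hochberg adjusted p under 0.05 over all tested probes. The arrays of 70 and 85 d also took part in choosing the probes, so steps that use them are not independent of that choice. In Ujumqin, A_70_P046666 rose by 4.12 (SE 0.31, adjusted p = 9.43e-10) from 85 to 100 d, which is 17.4-fold. Only 1.71% of all tested probes were called in that step, and its change was rank 2 of the 14480 by absolute size. From 100 to 120 d it rose by a further 2.36 (SE 0.31, adjusted p = 5.32e-05), or 5.14-fold, where 1.22% of all probes were called. A_70_P010381 rose in the same steps, by 1.32 (adjusted p = 0.00791) and by 2.75 (adjusted p = 1.90e-07), so the larger rise came in the earlier step for one probe and in the later step for the other. The call of A_70_P010381 from 85 to 100 d was lost without replicate 1 of 85 d (1.25) or without replicate 2 of 100 d (1.12), and with normexp background correction (0.68, adjusted p = 0.118). Neither probe was called from 70 to 85 d in Ujumqin, with differences of -0.01 and 0.13, where 0.276% of all probes were.

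No slide of the array platform held both the 85 d and the 100 d Ujumqin animals, whose arrays lay on slide 2 and on slides 3 and 4. With slide as a fixed term, which then rests on other groups that span these slides, the rise of A_70_P046666 was 2.66 (adjusted p = 0.0625 in limma). That of A_70_P010381 was 0.70 (adjusted p = 0.9997 in limma), so neither probe was called. From 100 to 120 d, the 3 arrays of 120 d and 2 of 100 d shared slide 4, and on that slide alone the difference was 2.16 for A_70_P046666 and 2.58 for A_70_P010381.

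In Texel, A_70_P046666 was called in 2 of the 4 fetal steps. It differed by 0.84 (SE 0.31, adjusted p = 0.339) from 70 to 85 d, where 0.670% of all probes were called. It rose by 0.98 (SE 0.29, adjusted p = 0.0383) from 85 to 100 d and by 1.17 (SE 0.29, adjusted p = 0.00773) from 100 to 120 d, and the backgrounds in these steps were 7.51% and 14.7%. The first of these calls was lost in 6 of the 7 fits that left out 1 array, with differences of 0.77 to 1.13, and held without replicate 1 of 100 d. On slide 2, the only slide with both stages, that array read 0.23 below the single array of 85 d. The second call was lost without replicate 2 of 120 d (1.04, adjusted p = 0.0523). On slide 3 the single array of 120 d read 1.25 above the mean of 3 arrays of 100 d.

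A_70_P010381 gave 0.56 (adjusted p = 0.545) from 70 to 85 d and 0.78 (adjusted p = 0.0507) from 85 to 100 d in Texel. It rose by 1.70 (adjusted p = 4.85e-05) from 100 to 120 d. A further rise of 0.87 (adjusted p = 0.0457) from 120 to 135 d was called against a background of 6.44%, while A_70_P046666 differed by 0.71 (adjusted p = 0.163). The call at 135 d was lost without replicate 3 of 120 d (0.59), replicate 1 of 135 d (0.67) or replicate 2 of 135 d (0.77).

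Around birth the probes parted. From 120 to 135 d in Ujumqin, where 9.95% of all probes were called, A_70_P046666 differed by 0.38 (adjusted p = 0.506) and A_70_P010381 rose by 0.94 (adjusted p = 0.0223). The latter call was lost in 4 of the 6 fits without 1 array, those without replicate 1 or 2 of 120 d or replicate 2 or 3 of 135 d, with 0.88 to 0.91. From 135 d to birth A_70_P010381 rose by 2.30 (SE 0.27, adjusted p = 1.50e-07), or 4.92-fold, and then fell by 1.44 (adjusted p = 0.000396) to 1 month. A_70_P046666 differed by 0.48 (adjusted p = 0.227) and by -0.29 (adjusted p = 0.559) in these steps. Birth was a broad change, with 42.9% of all probes called, and 21.0% were called from birth to 1 month. From 1 to 2 months, with 7.58% called, the differences were 0.17 and -0.05 and neither passed.

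A_70_P046666 lay near the top of the scale from 135 d onwards, and the part of this in its later values was not tested. Its highest array read 18.91 and the highest value that any probe had on this scale was 18.99, while no spot was saturated. When each array was divided by its 75th percentile instead, which moved the median of all probes by 0.22 at birth, A_70_P046666 rose by 0.85 (adjusted p = 0.0187) from 135 d to birth and by 0.99 (adjusted p = 0.0310) from 120 to 135 d in Texel. The newborn arrays lay on slide 1 and those of 135 d on slide 5, and with slide as a fixed term no later step of EEF1A2 was called. The 135 d and 2 month animals shared slide 5, and between them A_70_P010381 rose by 0.81 (adjusted p = 0.0200) and A_70_P046666 differed by 0.36 (adjusted p = 0.402), where 33.4% of all probes were called. The call of A_70_P010381 was lost without replicate 3 of 2 months (0.63) or replicate 1 of 135 d (0.71).

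**Figure D2:**
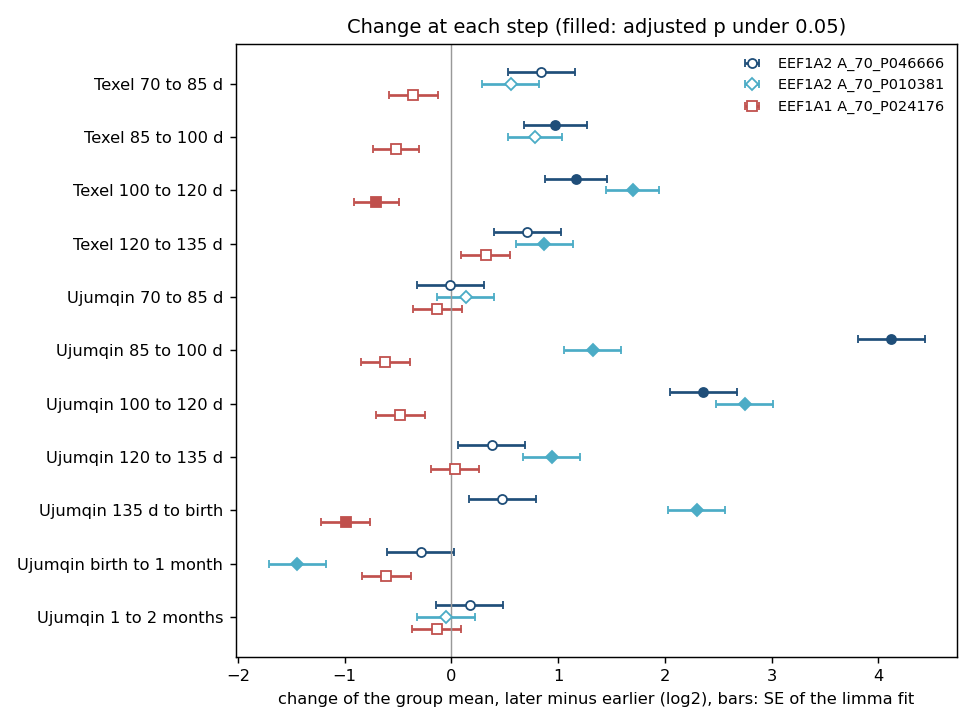
Change of the group mean at each step (log2, horizontal axis, later minus earlier stage) for both EEF1A2 probes and the EEF1A1 probe A_70_P024176, with bars for the SE of the limma fit and filled symbols for an adjusted p under 0.05. The EEF1A2 changes lie at or to the right of 0 through gestation, with the largest at 4.12 from 85 to 100 d in Ujumqin, and the EEF1A1 changes that passed are both below 0.

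Counted over both probes, 9 of 16 fetal steps and 2 of 6 later steps of EEF1A2 were called. The fetal calls include those from 85 to 100 d, of both probes in Ujumqin and of A_70_P046666 in Texel. These used arrays that took part in choosing the probes, so they are not independent of that choice. Of all tested probes, 0.276% to 14.7% were called in a fetal step and 7.58% to 42.9% in a later one. A_70_P046666 passed in 4 of 11 steps and A_70_P010381 in 7 of 11. All of the fetal calls were rises. Because the samples are whole muscle, a change in the number of muscle fibres or nuclei that express the gene and a change in the RNA of each cannot be told apart.

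Between the breeds, both EEF1A2 probes read higher in Texel at 70 and 85 d, and no difference passed the test at the later stages. The size of the difference varied between the probes, and no other measure of the RNA was used here. The study also measured this gene by quantitative PCR, which read lower in Texel at the youngest stage, opposite to the arrays. At the stage after it, the Texel excess by that method was much smaller than on the arrays. The array differences below therefore stand without backing from that method, and the cause of the disagreement was not tested. At 70 d, A_70_P046666 was 3.13 higher in Texel, or 8.75-fold, and at 85 d it was 3.98 higher, or 15.8-fold. A_70_P010381 was 0.98 higher at 70 d, where the study did not list it, and 1.40 higher at 85 d, where it did. In each case all Texel arrays lay above all Ujumqin arrays. These values chose the probes and carry no test, and the share of all probes called was 0.117% at 70 d and 0.0207% at 85 d. At 85 d, 1 Texel array shared slide 2 with the 3 Ujumqin arrays and read 4.08 above their mean for A_70_P046666 and 1.50 above it for A_70_P010381. The 70 d groups shared no slide, and their breed cannot be told apart from their slide.

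The other 3 stages were not used to choose the probes, and 0 of 6 comparisons were called by limma. At 100 d the Texel mean was 0.83 higher for A_70_P046666 (SE 0.43, adjusted p = 0.448) and 0.86 higher for A_70_P010381 (SE 0.26, adjusted p = 0.278), and the arrays of the second probe did not overlap. Only 0.0138% of all probes were called at 100 d. At 120 d the differences were -0.36 (adjusted p = 0.716) and -0.19 (adjusted p = 0.834) against a background of 0.0345%. At 135 d they were -0.03 (adjusted p = 0.987) and -0.25 (adjusted p = 0.923), and 0.0207% of all probes were called. All 3 Texel animals of 120 d were male and all 3 Ujumqin animals female, so breed and sex cannot be told apart at that stage. In the fit with sex as a term, no EEF1A probe differed by sex (adjusted p = 1.00), against 8 of 14480 probes called.

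EEF1A1, the general form, went the opposite way. The probe A_70_P024176, the brightest of those named EEF1A1, read 15.64, 16.06 and 15.78 in the Texel fetuses of 70 d and 14.11, 14.48 and 15.15 in those of 135 d. The Ujumqin fetuses of 70 d read 15.60, 15.38 and 16.01, and those of 135 d read 14.17, 15.00 and 14.23. Newborn lambs read 13.36, 13.64 and 13.43, lambs of 1 month 12.85, 12.93 and 12.83, and lambs of 2 months 12.75, 13.14 and 12.31. Every array after birth lay below every fetal array. Its group means spanned 3.09 on the log2 scale, or 8.53-fold, and the other 4 probes spanned 1.72 to 2.65. The LOC100125610 probes were slightly brighter, but levels of different probes cannot be set against each other.

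The fall of EEF1A1 passed the test in 2 steps. From 135 d to birth, where 42.9% of all probes were called, all 3 coding-strand probes fell, with log2 changes of -1.10 to -0.77, and A_70_P024176 fell by 0.99 (SE 0.23, adjusted p = 0.000938). These groups share no slide, and with slide as a fixed term the change was -0.30 (adjusted p = 0.864). From 100 to 120 d in Texel, against a background of 14.7%, all 3 fell as well, with log2 changes of -0.77 to -0.56. The opposite-strand probes A_70_P012926 and A_70_P012927 also fell in both steps, by 0.99 and 0.95 at birth and by 0.59 and 0.60 in Texel. They differed from the other 3 in the direction of some steps that did not pass, such as 85 to 100 d in Texel, with 0.19 and 0.28 against -0.53 to -0.50.

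The Texel calls rested on few arrays: without replicate 3 of 120 d none of the 5 passed, with changes of -0.67 to -0.35. Only 1 passed without replicate 2 of 120 d and 2 passed without replicate 3 or replicate 4 of 100 d. None passed under the 75th percentile scaling either, where A_70_P024176 gave -0.54 (adjusted p = 0.0904). No other step was called, so 3 of 24 fetal and 3 of 9 later results of the coding-strand probes passed, and 5 of 40 and 5 of 15 over all 5 probes. All fetal calls came from the step in which 14.7% of all probes were called, and all later ones from that with 42.9%. On slide 5, which held all arrays of 135 d and 2 months from Ujumqin, A_70_P024176 fell by 1.73 (adjusted p = 1.10e-06). All 5 probes fell between these stages, where 33.4% of all probes were called, with changes of -1.73 to -1.51 on the coding strand and of -1.31 and -1.08 on the opposite one.

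**Figure D3:**
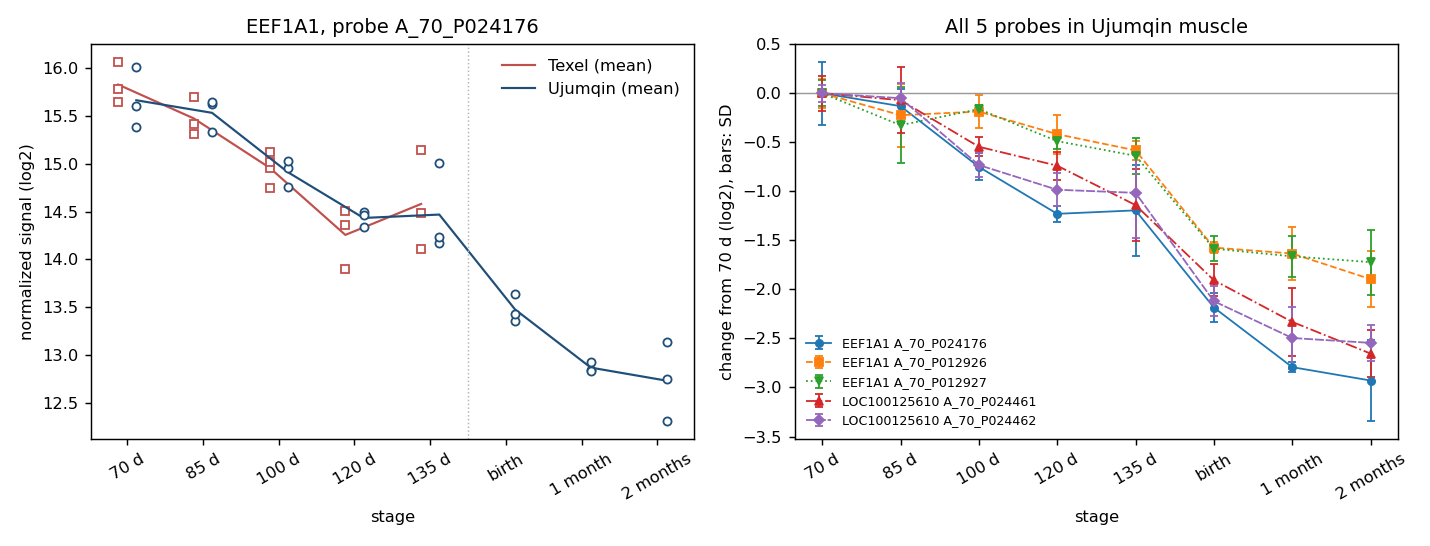
Left, normalized signal of the EEF1A1 probe A_70_P024176 (log2) by stage, with 1 symbol per animal, squares for Texel and circles for Ujumqin, and lines through the means. Right, change of the Ujumqin group means from 70 d (log2, bars for the SD of the group) for the 3 EEF1A1 and 2 LOC100125610 probes, all of which are lowest after birth. A_70_P012926 and A_70_P012927 are the opposite-strand probes.

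No breed difference of EEF1A1 passed the test. Of 25 comparisons, 5 probes at 5 stages, 0 were called by limma, 15 of them on the coding strand. The smallest unadjusted p was 0.036, for A_70_P024461 at 120 d, with a Texel mean 0.52 lower (adjusted p = 0.447), and it was the single one under 0.05. At 70 and 85 d, where EEF1A2 stood apart, A_70_P024176 differed by 0.16 and -0.06.

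Taking the difference between the 2 forms on the same array removes any factor that scales a whole array. Since probes differ in their response, a value of 0 does not mark equal amounts, and only its change can be read. The mean of A_70_P046666 minus A_70_P024176 moved from -1.40 at 70 d through -0.20, 1.29 and 3.16 to 3.55 at 135 d in Texel. In Ujumqin it moved from -4.36 and -4.24 at 70 and 85 d through 0.50 and 3.34 to 3.69 at 135 d, and then to 5.16 at birth, 5.48 at 1 month and 5.79 at 2 months. The arrays of 1 month and 2 months overlapped.

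Between the 6 arrays of 70 and 85 d and the 6 of 120 and 135 d this difference moved by 4.15 (17.8-fold) in Texel, with the early arrays between -1.80 and -0.04 and the late ones between 2.81 and 3.84. In Ujumqin it moved by 7.81 (225-fold), from a range of -4.44 to -4.14 to one of 3.13 to 3.97. The early arrays took part in choosing the probes, so these values are a description without a test. The 5 other pairs of an EEF1A2 and a coding-strand probe gave 3.91 to 4.43 in Texel and 5.51 to 7.64 in Ujumqin, and the 4 pairs with an opposite-strand probe gave 3.30 to 3.74 and 5.00 to 7.07.

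Arrays that had no part in that choice were tested in 3 comparisons, picked after the values had been seen, with two-sided exact permutation tests. In Texel, the 6 arrays of 120 and 135 d exceeded the 4 of 100 d, which lay between 0.40 and 1.75, by 2.06 (4.18-fold, exact p = 0.00952, adjusted over the 3 comparisons 0.0143). In Ujumqin they exceeded the 3 arrays of 100 d, between 0.05 and 0.97, by 3.01 (8.07-fold, exact p = 0.0238, adjusted 0.0238). The 9 arrays after birth, between 5.01 and 6.19, exceeded the 6 Ujumqin arrays of 120 and 135 d by 1.96 (3.88-fold, exact permutation p = 0.0004, adjusted 0.0012). In the step from 135 d to birth, A_70_P024176 fell by 0.99 and was called, while A_70_P046666 differed by 0.48 and was not. The groups did not overlap in any of the 3 comparisons, and each p was the smallest that the number of arrays allows. Because the values had been seen first, these p-values only describe that separation, and adjusting over 3 does not correct for the picking. Each comparison pools stages, and slide was not part of it. Newborn arrays lay on slide 1 and those of 1 month on slide 3. Ujumqin arrays of 120 d lay on slide 4, and those of 135 d and 2 months on slide 5. Whether the change differed between the breeds was not tested.

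**Figure D4:**
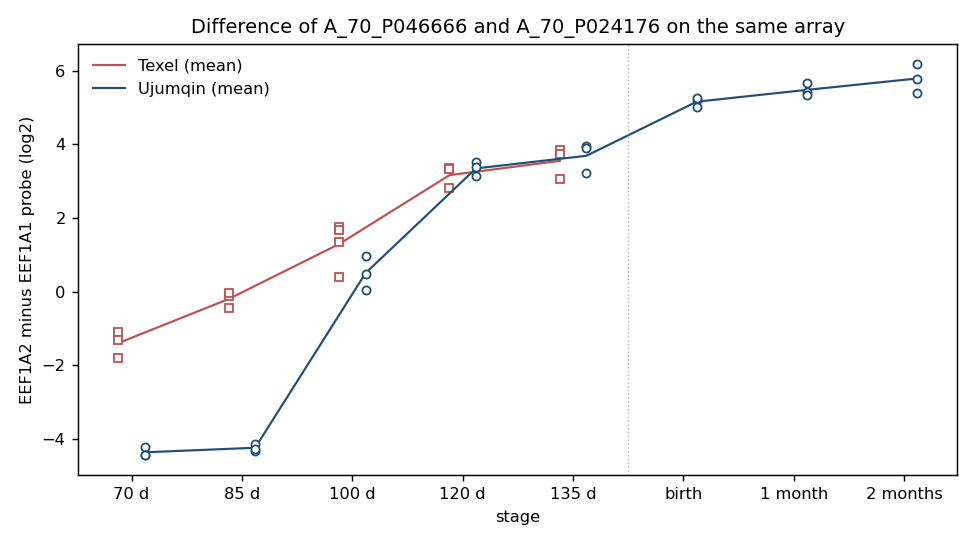
Difference of the EEF1A2 probe A_70_P046666 and the EEF1A1 probe A_70_P024176 on the same array (log2, vertical axis) by stage, with 1 symbol per animal, squares for Texel and circles for Ujumqin, and lines through the group means. The early arrays lie below 0 and the arrays from 120 d onwards between 2.81 and 6.19.

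Across the 40 arrays A_70_P046666 correlated with the 3 coding-strand EEF1A1 and LOC100125610 probes at r = -0.76 to -0.74, and A_70_P010381 at r = -0.87 to -0.86. These values describe the course over stages, since the same arrays and stages lie behind every pair. After removal of the group means, the r of A_70_P046666 with A_70_P024176 was 0.50.

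Other elongation factors were sparsely covered by named probes, with 3 of 24 listed genes and 6 probes, 3 of them EEF1A1 (1 on the coding strand). EEF1D, a subunit of the exchange complex, rose by 0.86 (adjusted p = 0.00617) at birth and fell by 0.98 (adjusted p = 0.00587) by 1 month. EEF1E1, a small partner of the tRNA synthetase complex, has 2 probes, of which A_70_P045157 rose by 0.81 (adjusted p = 0.0310) from 120 to 135 d in Texel and by 0.61 (adjusted p = 0.0343) at birth. With EEF1A1 included, 2 of the 6 probes rose and 3 fell at birth, where 42.9% of all probes were called, with a median of -0.22 against -0.01 over all probes.

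Initiation factors, 5 of 49 listed genes with 8 named probes, gave 3 rises and 1 fall at birth, with a median of 0.31. Thus 4 of 8 were called against 42.9% of all probes. EIF4G1, the scaffold of the cap-binding complex, rose by 0.76 (adjusted p = 0.0357) and EIF4A2, an RNA helicase of the same complex, by 0.67 (adjusted p = 0.0179). EIF1AX, which helps the small subunit to scan for the start codon, fell by 0.54 (adjusted p = 0.00120). Both called probes of PABPC1, the poly(A)-binding protein, fell from birth to 1 month, with changes of -0.70 (adjusted p = 0.00533) and -0.69 (adjusted p = 0.00262). Of 34 probes for 19 of 82 cytosolic ribosomal proteins, 3 rose and 14 fell at birth, 8 fell by 1 month, and 20 fell and none rose between 135 d and 2 months, where 42.9%, 21.0% and 33.4% of all probes were called in either direction. Their median changes were -0.26, -0.19 and -0.40, against -0.01, -0.01 and 0.01 over all probes. From 85 to 100 d in Ujumqin, 3 of the 34 ribosomal probes fell, where 1.71% of all probes were called, and no other probe of the 3 lists was called. From 100 to 120 d none of the 48 probes of the 3 lists was called by limma, against a background of 1.22%, and 1 had an unadjusted p under 0.05. No probe of these lists was called between the breeds at any stage.

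The glucose transporters SLC2A1 and SLC2A4 were the isoform pair other than EEF1A of which both forms had named probes. SLC2A4, the insulin-responsive GLUT4 of muscle and fat, has 2 probes. A_70_P041222 rose from 85 to 100 d in Ujumqin by 2.05 (adjusted p = 0.000915), and in Texel from 70 to 85 d by 1.54 (adjusted p = 0.0232) and from 100 to 120 d by 1.37 (adjusted p = 0.00431). Probe A_70_P041221 passed in none of the 11 steps, with 1.49 (adjusted p = 0.0650) from 85 to 100 d in Ujumqin. SLC2A1, the general transporter GLUT1, fell at birth on both probes, with log2 changes of -2.03 (adjusted p = 7.03e-06) and -2.04 (adjusted p = 6.42e-06). Neither gene was called between the breeds. The list of isoform pairs holds 7 measured genes of the adult skeletal form, with 12 named probes, and none was called between the breeds. At 70 d, 10 of these 12 had an unadjusted limma p under 0.05, with a median Texel minus Ujumqin difference of 0.71. At 85 d, 6 had one, with a median of 0.38. Of all probes, 0.117% and 0.0207% were called at these stages.

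**Figure D5:**
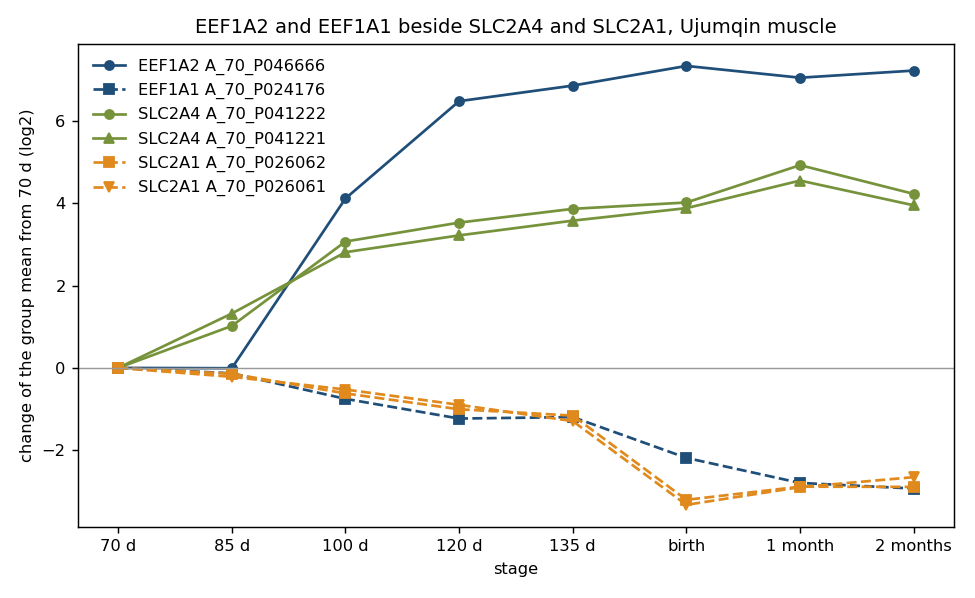
Change of the Ujumqin group mean from 70 d (log2, vertical axis) by stage for EEF1A2 and EEF1A1 and for both probes each of SLC2A4 and SLC2A1, the muscle forms with solid and the general forms with dashed lines. EEF1A2 is flat to 85 d and then passes both SLC2A4 probes, while EEF1A1 and SLC2A1 are lowest after birth.

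Among 766 named genes whose group means spanned at least 1, those most like A_70_P046666 over the 13 group means were led by ESR1, the estrogen receptor alpha (r = 0.95), and by the glycolytic enzymes ALDOA and ENO3 (both r = 0.95). ESR1 means ran from 8.83 in Ujumqin at 70 d to 13.96 at 1 month, and those of ENO3, the muscle enolase, from 11.40 to 16.46. IL12A, a cytokine subunit, and LOC443288, described as inhibin binding protein, followed with r = 0.94, and LDHA, a lactate dehydrogenase, SLC2A4 and PPARG, a regulator of fat cells, with r = 0.93. HACD1, an enzyme of fatty acid elongation in muscle, and OVAR, an MHC class I antigen, had r = 0.92. All but IL12A had their lowest mean in Ujumqin at 70 d. The course nearest to the inverse was that of CDH2, N-cadherin (r = -0.95), and TFF3, a trefoil factor (r = -0.95), both close to the floor in late stages, followed by SLAN and TGFB2 (both r = -0.93) and HOXC6 (r = -0.92). Over 13 points that rise with stage, 20 of 1188 eligible probes had r above 0.9 and 6 below -0.9.

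Markers of other cells were checked beside these changes, as summed log2 signals. Skeletal muscle markers (8 of 31 genes, 12 probes) ranged from 20.3 to 20.6 at 70 d and from 21.0 to 21.2 after birth, a sum made up mostly of TNNC2 and MYLPF. The other genes moved further: from 70 d to birth the Ujumqin means of PYGM, the muscle glycogen phosphorylase, went from 11.18 to 16.32, those of the myoglobin (MB) probe A_70_P029986 from 12.81 to 17.90, and those of MYH1, a fast myosin heavy chain, from 11.77 to 15.10. In Ujumqin, 0 of these 12 probes were called by limma from 85 to 100 d (1 at an unadjusted p under 0.05, 1.71% of all probes called), 3 rose from 100 to 120 d (1.22%) and 6 rose at birth (42.9%). In Texel 5 rose from 100 to 120 d (14.7%). None was called by limma between the breeds at any stage, with 6 of 12 at an unadjusted p under 0.05 at 70 d and 1 at 85 d. The 12 are probes with a gene name. The study listed further probes, of ACTN3 and MYH1, as higher in Texel at 85 d, and these are not among the 12. Nerve markers, of a tissue that also contains EEF1A2, had 2 of 20 genes among the named probes, the glial protein GFAP and NEFH. Their sum ranged from 8.62 to 10.4 over all arrays and was made up mostly of GFAP, so it does not measure neurons. At birth in Ujumqin, 2 of the 3 probes rose (42.9%). NEFH, a neurofilament protein, was well above background on 9 of 40 arrays. STMN2, for which the study listed a probe that differed between the breeds, was not among these 2 genes. Fibroblast and matrix markers (4 of 9 genes) ranged from 17.9 to 18.7 at 70 d and from 16.4 to 17.4 after birth. Adipocyte markers (8 of 12 genes) ranged from 11.7 to 12.9 at 70 d and from 13.3 to 14.5 after birth, and myoblast markers (3 of 9 genes) from 16.1 to 16.8 and from 14.1 to 16.01. After birth the adipocyte sum was mostly LPL and PPARG, and its genes did not move together. From 70 d to 2 months in Ujumqin, LPL probe A_70_P029921 went from 8.40 to 12.27, PPARG from 10.85 to 12.07 and FABP4 from 3.99 to 9.08. The LEP probe A_70_P017126 went from 7.85 to 6.99 and FASN from 6.44 to 6.03. Blood and leukocyte markers (5 of 14 genes, 10 probes) ranged from 17.4 to 18.0 at 135 d in Ujumqin, 14.1 to 17.5 at birth, 13.95 to 15.42 at 1 month and 12.1 to 13.5 at 2 months. Most of this sum was HBB, the beta globin, whose probe A_70_P051261 had a mean of 16.73 at 135 d and 10.46 at 2 months in Ujumqin, and between these stages 7 of the 10 probes rose and 2 fell (33.4% of all probes called). Endothelial markers (3 of 8 genes, 7 probes) ranged from 10.72 to 10.998 at 135 d in Ujumqin and from 9.34 to 9.56 at 2 months, with 6 of 7 falling. Cell cycle genes (4 of 16 genes, 5 probes) ranged from 13.9 to 14.3 at 70 d and from 11.97 to 12.33 at 2 months, and 4 fell from 100 to 120 d in Texel (14.7% of all probes called) as well as between 135 d and 2 months in Ujumqin. The part of these cells and tissues in the EEF1A2 and EEF1A1 changes was not tested.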

How the data were processed

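RNA of longissimus dorsi from each animal was hybridized, after Cy3 labelling, to its own 1-colour Agilent array for sheep, and stage, breed, replicate number and sex were read from the labels. The scanner files hold spot intensity, made by the authors by subtracting the background of each array without scaling between arrays, per the file headers (Agilent Feature Extraction 10.5, per the submitters' processing notes). The authors also deposited log2 values that they had normalized by quantiles, and this table served as an alternative. Outlier spots were left out, the spots of a probe averaged (15208 spots that were not controls, 15008 probes), and quantile normalization applied over the 40 arrays, with a floor of 1 before taking log2. A probe was tested if at least 1 array had it well above background (14480). Array medians of the processed signal were 217.6 to 708.3, 79.3% to 90.9% of spots were well above background, and arrays of a group correlated with r = 0.968 to 0.994. The number of arrays limits the precision.

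Stage steps were tested with limma 3.58.1 in R 4.3.3 in 1 fit over 13 groups, and breed differences, Texel minus Ujumqin, on the arrays of that stage alone as in the study's methods. All p-values were adjusted by Benjamini-Hochberg over all tested probes of a comparison. The within-array difference was tested by exact permutation, for arrays that had no part in choosing the probes, in Python 3.11.15 with scipy 1.17.1. Of the probes, 1605 were named through the files or the RefSeq gene table of the sheep assembly. Genes of the lists were counted only through these named probes, so a listed gene that was not counted may still have a probe on the array. On simulated data for the step from 85 to 100 d in Ujumqin, 83 of 100 probes changed 4-fold and 56 of 100 changed 2-fold were found among 13668, with 5 others.

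The members and lists were chosen with earlier results of these data known. The genes named are both EEF1A2 probes, every EEF1A1 probe, every elongation factor probe, up to 5 initiation factor probes with the largest called change, the isoform pairs measured in both forms, and the 10 genes most like and 5 most unlike A_70_P046666 among those spanning at least 1 on the log2 scale. The alternatives changed how arrays were scaled and which were normalized together, how background was corrected, the source of values, the low-signal filter and floor, outlier spots, the variance model, array weights, sex, slide, replicate number, the arrays in the fit, the test, the threshold and each array left out. The step from 135 d to 2 months, the within-slide values, the split of the EEF1A1 probes by strand and the tests of the within-array difference on later arrays were added after the data had been seen. A_70_P046666 is not printed as a sequence, because its place in the transcript was not checked here. An item of genotype named by the study is not reported here.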

Additional observations from a re-analysis of the deposited data

Results flagged for a closer look

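Texel at 100 d, with 4 animals, was the single group large enough for a check of values that stand apart. Of 8 values checked, the lowest and the highest array being judged by the gap to the nearest other array over the whole range of the group (Dixon's critical value 0.829), 1 was past the limit. This was the highest array of the EEF1A1 probe A_70_P012927, at 13.48, in a group with an SD of 0.052. Chance alone puts about 1 in 20 groups past this limit.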

How the results depend on the processing

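Of 616 combinations of a called EEF1A result and an alternative, 492 kept the direction and the call, 123 kept the direction without passing, and 1 reversed. The within-array differences between 70 and 85 d and 120 and 135 d ranged from 4.03 to 4.17 in Texel and from 7.57 to 7.86 in Ujumqin over 6 other ways of processing, and from 3.95 to 4.31 and 7.72 to 7.89 when 1 array was left out. Counts in parentheses are of the 9 of 16 fetal and 2 of 6 later EEF1A2 steps and the 5 of 40 fetal and 5 of 15 later EEF1A1 results. The EEF1A1 results are those of all 5 probes, with the opposite-strand pair and both overlapping LOC100125610 probes included. With slide as a fixed term, A_70_P046666 gave -0.23 from 85 to 100 d in Texel, 0.82 (adjusted p = 0.307) from 100 to 120 d in Texel and 2.66 (adjusted p = 0.0625) from 85 to 100 d in Ujumqin, and A_70_P024176 gave -0.30 (adjusted p = 0.864) at birth (3, 0, 0 and 0). With the arrays of the 2 groups alone, A_70_P046666 gave 1.17 (adjusted p = 0.227 in limma) from 100 to 120 d in Texel (4 fetal EEF1A2 and 2 fetal EEF1A1 calls), and with array weights 1.36 (adjusted p = 0.0561). The methods' t-test gave the same differences with adjusted p-values of 0.551 for the 1.17, 0.286 for the 4.12 and 0.324 for the 2.36 of A_70_P046666 and 0.142 for the -0.99 of A_70_P024176 (0, 1, 0 and 2). Requiring a 2-fold change left out the -0.99 of A_70_P024176 at birth (0 fetal and 1 later EEF1A1 call). Fetal EEF1A1 calls numbered 0 under the 75th percentile scaling and 3 with sex as a term. Leaving out 1 array, A_70_P046666 ranged from 0.80 to 1.52 from 100 to 120 d in Texel and the fetal EEF1A1 calls from 0 to 6. A_70_P010381 lost its call from 85 to 100 d in Ujumqin with normexp background correction (0.68) and with slide as a fixed term (0.70). It also lost this call with the arrays of the 2 groups alone (1.32, adjusted p = 0.0655 in limma). On average, same-numbered arrays did not deviate together (mean r of 0.014 over Texel stages, -0.010 over Ujumqin stages and -0.030 between breeds). Single pairs ranged from -0.31 to 0.25, and the labels do not say what the numbers stand for. With the replicate block, 5 of 27 called results did not pass and fetal EEF1A1 calls numbered 1. The fit with slide as a fixed term could not be made for the 70 d breed difference, nor that with sex at 120 d. The cause of these changes was not tested.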
